A study of Mus musculus with 10 samples.

Results

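The comparison set liver RNA of patBFMI F1 males against liver RNA of B6N, the strain of their mothers. The patBFMI animals were males from matings of BFMI860-12/Hber (BFMI) fathers with C57BL/6NCrl (B6N) mothers, and the 3 libraries came from sons of 3 different mothers. The B6N side held 1 male and 1 female of the inbred strain. All 5 mice were 10 weeks old. The F1 animals ate a high fat diet from day 21 to day 70. The inbred mice are recorded with a standard breeding diet in one place and with a high fat diet in another, so whether both sides ate the same diet is not settled here. Members were autosomal genes that reached 10 counts in 2 or more of these 5 libraries, 17656 of the 36286 autosomal genes in the count table of 41388 genes. Where levels of BFMI (1 male and 1 female) or of the reciprocal F1 males with BFMI mothers (matBFMI, 3 males) are given, they are set beside the comparison.

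BFMI is an inbred line with juvenile obesity, and B6N is lean. Both sides of the comparison carry B6N mitochondria, and a B6N X chromosome is the only X of the F1 males, so the F1 differs by the autosomes and the Y chromosome of its BFMI father. Each autosomal gene of the F1 has a BFMI and a B6N copy. A gene that is silent in one strain and active in the other is therefore present once in active form, and hepatocytes, which make plasma proteins, bile acids and cholesterol, share the organ with Kupffer cells, its resident macrophages.

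Assigned reads ranged from 46988713 to 58955349 in the 5 libraries. The patBFMI libraries were run on lane 5 and the B6N libraries on lane 4, so lane and group cannot be told apart. A count was found for 32421 genes in patBFMI 1 and for 22095 and 23490 genes in patBFMI 2 and 3. In the B6N male and female it was found for 31205 and 34572 genes, more than in patBFMI 2 and 3. At least 10 counts were reached by 18062, 15905 and 17074 genes in patBFMI and by 17402 and 20058 genes in B6N. Whether this difference bears on genes with few counts was not tested. As a check of the tissue, the summed level of 12 hepatocyte markers ranged from 78790.2 to 88693 CPM (the count scaled to a TMM-adjusted library size of 1e6 reads) in patBFMI and was 89111 and 102829 CPM in the B6N male and female. Both B6N livers also held RNA of pancreatic secretion genes, 50 CPM in sum in the male and 301 CPM in the female, against 0.912 to 2.86 CPM in patBFMI. BFMI held 2.72 and 2.55 CPM and matBFMI 0.623 to 1.3 CPM of these genes.

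Of the 17656 genes, 330 (1.87%) were called at an adjusted p below 0.05 (edgeR quasi-likelihood test with terms for group and sex), 185 (1.05%) higher and 145 (0.821%) lower in patBFMI. When libraries were scaled by their size alone, 113 genes were higher and 133 lower. On the deposited RPKM values, log2(value + 1) with limma, 29 were higher and 59 lower, with the median of all genes at -0.254. Of the calls, 102 higher and 88 lower genes changed by at least 1 on the log2 scale, and 146 and 130 were protein-coding. In 313 of the 330 the 3 patBFMI libraries did not overlap the 2 B6N libraries, while over all genes tested 17.3% lay above and 15.2% below both B6N libraries. The median log2 fold change of all genes was 0.00377. Pancreatic secretion genes made up 20 of the lower calls, and 125 lower calls remained without them. If the B6N male is left out, 3 F1 males face 1 B6N female, and the sex term rests on the BFMI pair alone. A call lost there mixes sex with the weight of 1 animal. In that fit 311 of the 330 genes kept their sign and 19 were not tested. The B6N side rests on 2 animals: without the B6N male 51 genes were higher and 36 lower, and 41 of the 330 genes were still called. Leaving out any one of the 5 libraries kept the call of 33 genes, 30 higher and 3 lower.

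**Figure D1:**
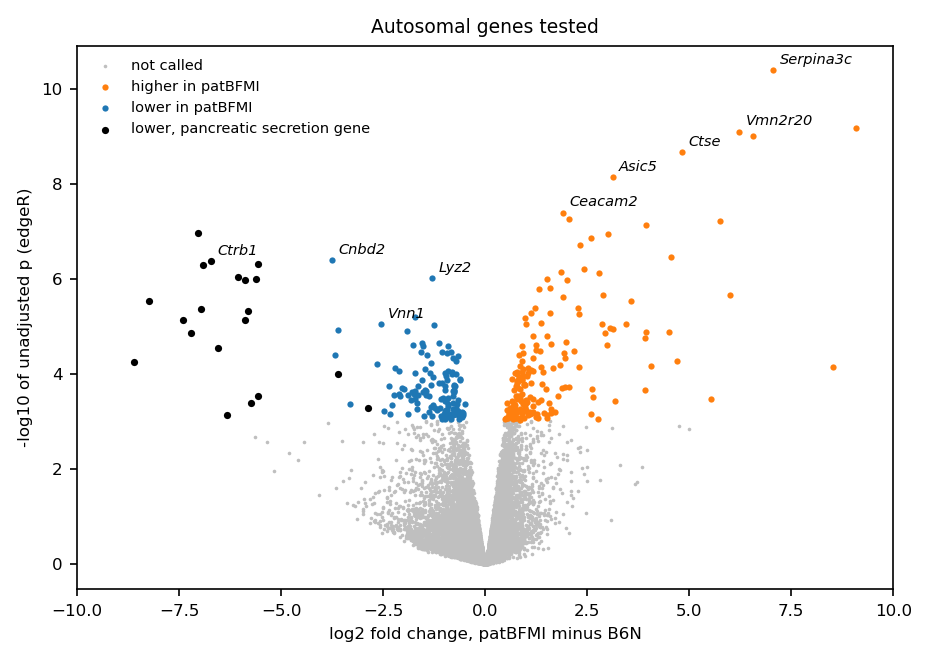
Each point is one autosomal gene tested, with the log2 fold change of patBFMI against B6N on the horizontal axis and the negative log10 of the unadjusted edgeR p on the vertical axis. Orange points are the 185 genes called higher in patBFMI, and the 145 genes called lower are blue, or black where they are 1 of the 20 pancreatic secretion genes. Fitted values of black points with almost no counts in patBFMI depend on the prior count and are no bounds.

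Serine protease inhibitors (serpins) are plasma proteins that trap proteases, and several of those made by liver lie side by side on chromosome 12. Serpina3c (ENSMUSG00000066361, chromosome 12, 104146382 to 104153870, GRCm38) stood at 119, 133 and 103 CPM in the 3 patBFMI livers and at 0.999 and 0.575 CPM in the B6N male and female. It was nearly silent in both B6N livers, with no overlap, and its log2 fold change of 7.06 (SE 0.23, adjusted p = 7.4e-07) had the smallest p of all genes. The BFMI livers held 203 and 179.6 CPM, and the matBFMI livers 116 to 129 CPM. Between 103817856 and 104394257 on this chromosome, 21 genes were tested, 9 were called higher and 1 lower. Serpina3m, an acute phase serpin, had 1264, 1339 and 1099 CPM in patBFMI and 434 and 480.2 CPM in B6N (log2 fold change 1.5, SE 0.14, adjusted p = 0.000699). Serpina3a had 1.79, 2.04 and 1.56 CPM against 0.13 and 0.103 CPM. Serpina11 had 59.5, 56.9 and 54.3 CPM against 32.4 and 20.7 CPM. Groups did not overlap for any of these. Serpina5, the protein C inhibitor, was higher by 3.19 (SE 0.604, adjusted p = 0.0315), a call that was lost without patBFMI 3 or without the B6N male (adjusted p up to 0.274). Serpina3f went the other way, with 3.12, 3.22 and 3.31 CPM against 5.26 and 4.81 CPM (log2 fold change -0.79, SE 0.157, adjusted p = 0.0394), and its call was lost without any one of the 5 libraries. Serpina3 genes are near-identical copies, so how reads were shared among them is uncertain.

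Upstream bases of 4 of these neighbouring serpins are shown, 3 called higher and 1 lower, each of which holds a match described below. Serpina5 and Serpina3i, also called higher, have an entry but are not shown. Serpina5 held no match to TATAAA or TTCNNNGAA, and Serpina3i held a match to TTCNNNGAA. Sequences are the 250 bases before the RefSeq start (GRCm38.p6), read along the gene's strand, with matches to TATAAA, a core promoter element, or TTCNNNGAA (a site of STAT factors) on either strand in capitals:
Serpina3c, chr12:104153873-104154122, minus strand: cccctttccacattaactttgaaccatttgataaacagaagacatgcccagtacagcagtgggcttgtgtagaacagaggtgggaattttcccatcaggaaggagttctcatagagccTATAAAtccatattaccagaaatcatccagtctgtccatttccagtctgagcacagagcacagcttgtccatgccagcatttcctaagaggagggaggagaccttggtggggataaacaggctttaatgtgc
Serpina3a, chr12:104112474-104112723, plus strand: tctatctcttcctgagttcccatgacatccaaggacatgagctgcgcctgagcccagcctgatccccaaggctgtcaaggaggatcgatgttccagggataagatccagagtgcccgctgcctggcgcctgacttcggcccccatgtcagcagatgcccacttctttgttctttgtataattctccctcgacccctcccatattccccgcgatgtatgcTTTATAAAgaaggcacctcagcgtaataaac
Serpina11, chr12:103989958-103990207, minus strand: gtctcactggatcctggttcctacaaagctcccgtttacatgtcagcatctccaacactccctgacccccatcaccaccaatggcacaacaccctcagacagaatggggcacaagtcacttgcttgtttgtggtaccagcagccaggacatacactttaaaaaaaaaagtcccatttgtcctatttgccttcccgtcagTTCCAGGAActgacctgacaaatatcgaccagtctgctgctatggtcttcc
Serpina3f, chr12:104214294-104214543, plus strand: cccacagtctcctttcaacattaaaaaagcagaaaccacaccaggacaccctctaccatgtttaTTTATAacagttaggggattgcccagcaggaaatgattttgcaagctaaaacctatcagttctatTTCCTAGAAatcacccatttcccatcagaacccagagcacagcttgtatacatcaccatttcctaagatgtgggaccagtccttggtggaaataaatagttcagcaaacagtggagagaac
The match to TATAAA began -132 bases from the start in Serpina3c, -31 in Serpina3a, where matches of both strands overlap, and -186 in Serpina3f. A match to TTCNNNGAA began at -51 in Serpina11 and at -121 in Serpina3f. Over all 32851 RefSeq promoters 12.4% held TATAAA and 7.02% TTCNNNGAA in this window. Of the 118 higher genes with a promoter entry, 13 held TATAAA and 15 (12.7%) TTCNNNGAA, of the 98 lower genes 18 (18.4%) and 6 (6.12%), and of the 11802 autosomal genes tested that have an entry 9.05% and 7.39%.

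**Figure D2:**
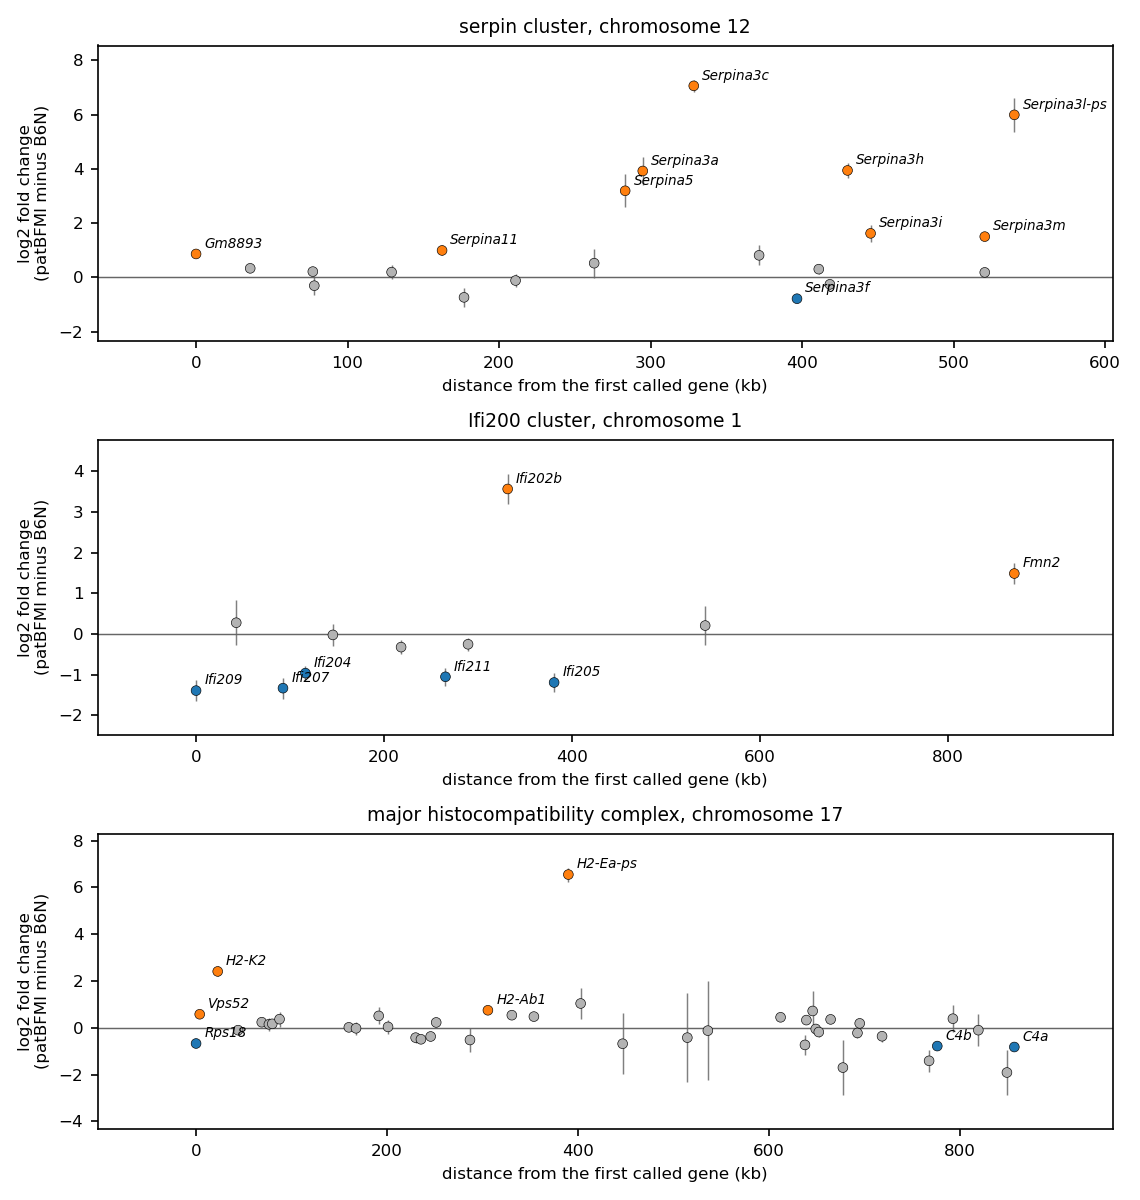
Log2 fold change of patBFMI against B6N (vertical axis, with the standard error as bars) for every gene tested in 3 gene clusters, by distance in kb from the first called gene. Orange genes were called higher, blue genes lower and grey genes not called: the serpin cluster has 9 orange and 1 blue gene, the Ifi200 cluster 2 orange and 5 blue, and the stretch of the major histocompatibility complex 4 orange and 3 blue.

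Ctse, Asic5, Ceacam2 and Ces1b were higher in every patBFMI liver than in either B6N liver, and so was Vmn2r20, described next. Ctse, the aspartic protease cathepsin E, stood at 12.2, 14.4 and 12.5 CPM in patBFMI and at 0.407 and 0.452 CPM in B6N (log2 fold change 4.82, SE 0.236, adjusted p = 7.82e-06). Asic5, a bile acid-sensitive ion channel of the acid-sensing family, stood at 49.8, 38.1 and 40.9 CPM against 4.65 and 5.18 CPM (3.13, SE 0.174, adjusted p = 2.21e-05). Ceacam2, a cell adhesion protein, stood at 34.7, 39 and 37.2 CPM against 9.53 and 9.78 CPM (1.9, SE 0.127, adjusted p = 0.000105). These groups lay far apart, and BFMI was higher still, with 55.5 and 44.7 CPM of Ctse, 87.7 and 80.7 CPM of Asic5 and 79.5 and 71.7 CPM of Ceacam2. Ces1b, a carboxylesterase that splits lipid esters and drugs, had 209, 202 and 219 CPM against 53.6 and 89.6 CPM (2.04, SE 0.14, adjusted p = 0.000122). Calls of Ctse, Asic5, Ceacam2, Ces1b, Vmn2r20 and Serpina3c held under all 17 alternatives tried.

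A trio of vomeronasal receptor genes on chromosome 6 (123373513 to 123650725) was higher, and these were the only 3 genes tested there. Vmn2r20 had 9.86, 11.4 and 12.8 CPM in patBFMI and 0.13 and 0.123 CPM in B6N (log2 fold change 6.22, SE 0.276, adjusted p = 4.52e-06). Vmn2r21 had 6.21, 7.04 and 7.33 CPM against 0.0555 and 0.144 CPM, and Vmn2r22 had 1.83, 1.95 and 2.66 CPM against 0.037 and 0.144 CPM. Such receptors are known from the vomeronasal organ, where they detect pheromones, and the genes of the family are close copies, so the share of reads each received is uncertain. The call of Vmn2r22 was lost without the B6N male (adjusted p = 0.172).

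Among enzymes of sterol and drug handling, Cyp46a1, the cholesterol 24-hydroxylase best known from brain, had 13.4, 16.2 and 17.5 CPM in patBFMI and 0.722 and 0.616 CPM in B6N (log2 fold change 4.55, SE 0.382, adjusted p = 0.000425). BFMI held 53.8 and 57.5 CPM of it. Cyp2c39, a Cyp2c cytochrome, had 33.2, 26.9 and 22.1 CPM against 1.8 CPM in the B6N male and 10.2 CPM in the female. The groups were apart in both cases, and the BFMI level of Cyp2c39, 226 and 466 CPM, was above that of every F1 library. The Cyp2c39 call (3.44, SE 0.411, adjusted p = 0.00326) was lost without the B6N male (adjusted p = 0.0725). A4gnt, a glycosyltransferase of gastric mucin, had 2.19, 4.2 and 2.96 CPM against 0.0185 and 0.185 CPM, with 20 and 11.5 CPM in BFMI. Rnase2a, of the ribonuclease A family, was the exception in its BFMI level: it had 0.868, 1.23 and 1.01 CPM in patBFMI, 0.418 and 0.136 CPM in BFMI and 3 counts in all in B6N, too few for a fold. Without the B6N male the calls of A4gnt, Rnase2a and, in the clusters, Serpina3a and Ifi202b were lost too.

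Chosen after their values were seen, several further genes had clear differences. Rprl3, an RNA gene resembling the RNA part of RNase P, had 61.1, 73.7 and 73.1 CPM against 0.148 and 0.0616 CPM in B6N (log2 fold change 9.09, SE 0.396, adjusted p = 4.52e-06). Gpat3, which adds the first acyl chain in glycerolipid synthesis, had 11, 9.95 and 9.65 CPM against 2.46 and 3.9 CPM (2, SE 0.189, adjusted p = 0.000699). Corin, the protease that activates the atrial natriuretic peptide, had 3.92, 5.24 and 4.47 CPM against 0.426 and 0.842 CPM (2.88, SE 0.295, adjusted p = 0.00127). Groups did not overlap for any of them. Mup5, a major urinary protein, had 10.7, 12.8 and 10.3 CPM against 1.8 and 0.678 CPM. Car3, an abundant cytosolic carbonic anhydrase, had 2517, 3679 and 2733 CPM against 1026 and 717 CPM (1.65, SE 0.255, adjusted p = 0.0129), a call lost without the B6N male (adjusted p = 0.0984).

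**Figure D3:**
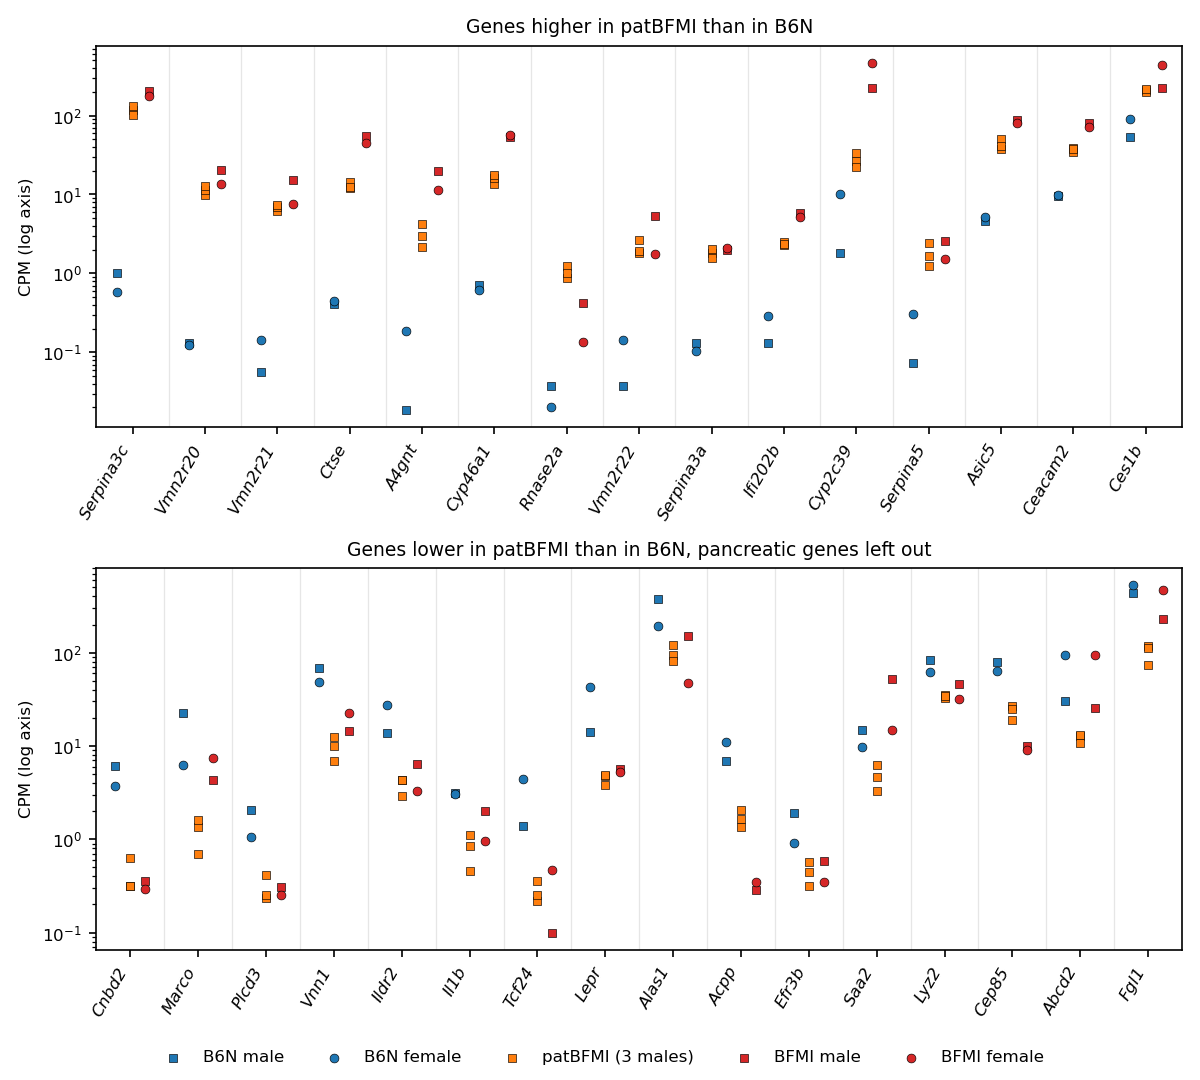
CPM on a log axis of the named genes in the 3 patBFMI livers (orange), the 2 B6N livers (blue) and, beside them, the 2 BFMI livers (red), with squares for males and circles for females. The upper panel holds the genes called higher, such as Serpina3c at 103 to 133 CPM against 0.999 and 0.575 CPM in B6N, and the lower panel those called lower, with pancreatic genes left out.

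Classical and class II histocompatibility genes present peptides to T cells and differ between strains by haplotype. H2-Ea-ps, the class II alpha gene that is known to be silent in mice of the b haplotype, had 7.97, 9.21 and 8.2 CPM in patBFMI and 0.0925 and 0.103 CPM in B6N (log2 fold change 6.55, SE 0.297, adjusted p = 4.52e-06), and 18.9 and 23.2 CPM in BFMI. H2-K2 had 26.3, 32.4 and 30.3 CPM against 4.87 and 9.16 CPM, and H2-Bl had 7.53, 8.65 and 8.64 CPM against 1.37 and 1.38 CPM. All 3 of these are annotated as pseudogenes or polymorphic pseudogenes and were chosen after their values were seen. H2-Ab1, a class II beta chain, had 18.3, 18.1 and 16.9 CPM against 9.74 and 13.6 CPM (0.75, SE 0.137, adjusted p = 0.0277). Nearby, both copies of complement C4 were lower: C4b had 798, 799 and 889 CPM against 1489 and 1254 CPM (-0.78, SE 0.149, adjusted p = 0.0339) and C4a 104, 108 and 109.9 CPM against 179.6 and 141 CPM (-0.82, SE 0.132, adjusted p = 0.0145). BFMI had 256 and 261 CPM of C4b. In a list of 26 histocompatibility and linked genes tested, these C4 genes and H2-Ab1 were called, against 1.87% of all genes, and the median was 0.06. That list does not hold H2-Ea-ps, H2-K2 and H2-Bl, which were called as well. Nor does it hold H2-Q5, called higher by 1.18 on the log2 scale, a call lost without patBFMI 2 or patBFMI 3. Calls of H2-Ab1 and C4b were lost without any one patBFMI library and without the B6N male.

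Among the lower genes, 20 code for pancreatic secretion, which is the work of acinar cells of the pancreas. Amy2a4, a pancreatic amylase, had 0.0394, 0.0424 and 0.0504 CPM in patBFMI against 5.2 and 32.9 CPM in the B6N male and female (log2 fold change -7.05, SE 0.522, adjusted p = 0.000168). Pnlip, pancreatic lipase, had 0.118, 0 and 0 CPM against 4.63 and 24.1 CPM, and Ctrb1, chymotrypsinogen, 0.0394, 0.0212 and 0 CPM against 2.05 and 11.7 CPM. In each, the B6N female was above the B6N male, and the patBFMI, matBFMI and BFMI livers were near 0. Reg1 (289 counts), Cpa1 (686), Cel (927), Try4 (483), Prss2 (685), Cela3b (293) and Try5 (277) reached 3 counts or fewer in sum over patBFMI against the counts given for B6N. The 6 pancreatic amylase genes are copies of one another. Of the 13 pancreas, adipose and gut markers tested, 9 were lower, against 0.821% of all genes. Cela1 was higher, with 22.1, 27.7 and 27.8 CPM against 13.7 and 24.6 CPM, where patBFMI 1 fell between the B6N livers. Whether pancreatic tissue entered the B6N samples was not tested.

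**Figure D4:**
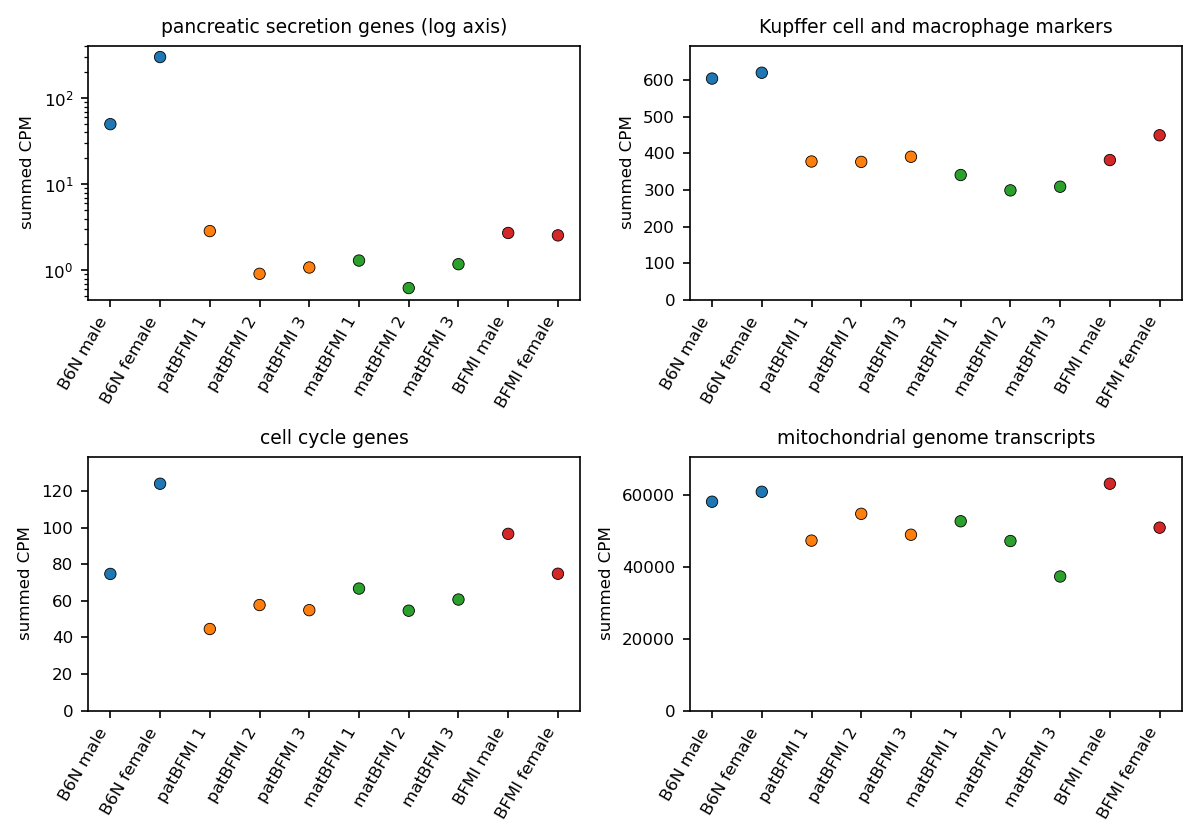
Summed CPM per library of pancreatic secretion genes (log axis), macrophage markers, cell cycle genes and transcripts of the mitochondrial genome, with B6N in blue, patBFMI in orange, matBFMI in green and BFMI in red. Both B6N livers lie above all 3 patBFMI livers in each panel, at 50 and 301 against 0.912 to 2.86 CPM for the pancreatic genes and at 605 and 621 against 377 to 391 CPM for the macrophage markers.

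Kupffer cell and macrophage markers were mostly lower. Of the 16 tested, 6 were called lower and none higher by edgeR, against 0.821% and 1.05% of all genes. Below both B6N livers lay 15, against 15.2%, and their median was -0.57 against 0.00377 over all genes. The 1 marker with a fold change above 0 was higher at an unadjusted p below 0.05. Lyz2, lysozyme of myeloid cells, had 35, 33 and 33.9 CPM in patBFMI and 83.6 and 61.3 CPM in B6N (log2 fold change -1.31, SE 0.123, adjusted p = 0.000699). Marco, a scavenger receptor, had 1.36, 0.7 and 1.6 CPM against 22.4 and 6.21 CPM (-3.68, SE 0.527, adjusted p = 0.00857). Cd5l, secreted by macrophages, had 55, 46.9 and 55.1 CPM against 105 and 109 CPM (-0.94, SE 0.133, adjusted p = 0.00805). The groups did not overlap, and B6N was higher in every case. C1qb, Adgre1 (the F4/80 antigen) and Csf1r fell by 0.68, 0.77 and 0.5 on the log2 scale (adjusted p = 0.00876, 0.0234 and 0.0345). Not all markers passed: Clec4f, the Kupffer cell lectin, had 79.3, 87.7 and 86 CPM against 95.6 and 126 CPM (-0.15, SE 0.125, adjusted p = 0.691) and Timd4 5.92, 5.2 and 6.1 CPM against 8.27 and 6.78 CPM (-0.33, SE 0.203, adjusted p = 0.546). In bulk tissue fewer macrophages and less of these RNAs per macrophage cannot be told apart. Lyz1, another lysozyme gene, was called higher by 1.29 on the log2 scale, the opposite direction to Lyz2. That call was lost without any one patBFMI library, and the Lyz1 difference was below 0 on both RPKM scales. How reads were shared between Lyz1 and Lyz2 was not tested. Lyz2 was called under all 17 alternatives, while the calls of Marco, Cd5l and C1qb were lost without the B6N male (adjusted p up to 0.327), that of Adgre1 also without patBFMI 3, and that of Csf1r without any one of the 5 libraries. In matBFMI the summed level of these markers was 299 to 341 CPM and in BFMI 382 and 449.8 CPM.

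Interferon response genes lay lower as a rule but seldom passed the test. In the list of 39, 34 had a log2 fold change below 0, against 49.4% of all genes. Below both B6N livers lay 26, against 15.2%. The median was -0.54, and 1 was called lower, against 0.821%. Trim30a had 6.13, 6.45 and 8.15 CPM against 11.4 and 13.6 CPM (log2 fold change -0.83, SE 0.177, adjusted p = 0.0494), a call lost without either B6N liver, patBFMI 1 or patBFMI 2 (adjusted p up to 0.139). Zbp1, a sensor of nucleic acids, stood at 1.1, 1.25 and 1.23 CPM against 2.63 and 4.87 CPM but did not pass (adjusted p = 0.0529). The list median was below 0 under all 17 alternatives, from -1.04 to -0.45. Neighbouring families showed the same direction: Ifi209, Ifi207, Ifi204, Ifi211 and Ifi205 of the Ifi200 cluster on chromosome 1 were called lower by 0.96 to 1.39 on the log2 scale, and Slfn9, Slfn8 and Slfn2 on chromosome 11 (82978390 to 83070678) fell by 0.92, 0.88 and 0.91. Ifi205 had 1.18, 0.933 and 1.31 CPM against 2.41 and 3.06 CPM. Ifi202b, an inhibitor of cytosolic DNA sensing in the same cluster, was higher, with 2.49, 2.31 and 2.34 CPM against 0.13 and 0.288 CPM (3.57, SE 0.378, adjusted p = 0.00155). Members of the Gvin1 group on chromosome 7 (105824223 to 106511671), large interferon-inducible GTPases, made up 6 lower calls among 10 genes tested, and Gvin1 itself had 31.6, 24.7 and 23.8 CPM against 69.8 and 62 CPM (-1.52, SE 0.206, adjusted p = 0.00648), a call lost without the B6N male (adjusted p = 0.0677). These neighbours were chosen after their values were seen. None of the calls of Ifi205, Ifi209, Ifi211, Slfn2, Slfn8 and Slfn9 held when any one of the 5 libraries was left out.

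For 3 of these lower genes the upstream bases are shown because each holds the core of the interferon response element (GAAA, any 2 bases, GAAA), given in capitals on either strand (RefSeq, GRCm38.p6, 250 bases before the start):
Ifi205, chr1:174031756-174032005, minus strand: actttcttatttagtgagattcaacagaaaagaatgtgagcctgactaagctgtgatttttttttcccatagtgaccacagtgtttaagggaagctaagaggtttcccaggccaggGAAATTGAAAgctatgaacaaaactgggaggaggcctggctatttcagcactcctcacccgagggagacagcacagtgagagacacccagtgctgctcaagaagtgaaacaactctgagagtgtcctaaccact
Slfn9, chr11:82991831-82992080, minus strand: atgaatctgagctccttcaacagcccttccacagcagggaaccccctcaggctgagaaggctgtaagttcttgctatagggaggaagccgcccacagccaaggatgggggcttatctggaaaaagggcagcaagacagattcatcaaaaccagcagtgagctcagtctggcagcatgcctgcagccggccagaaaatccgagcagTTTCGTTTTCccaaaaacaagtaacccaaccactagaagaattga
Slfn8, chr11:83020811-83021060, minus strand: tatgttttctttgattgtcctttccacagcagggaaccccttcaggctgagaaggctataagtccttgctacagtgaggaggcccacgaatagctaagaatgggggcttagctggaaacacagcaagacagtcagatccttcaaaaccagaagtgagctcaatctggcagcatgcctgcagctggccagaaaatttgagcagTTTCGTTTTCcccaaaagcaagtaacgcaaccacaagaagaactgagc
The match began -134 bases from the start in Ifi205, -45 in Slfn9 and -48 in Slfn8. This core stood in 2.98% of all 32851 promoters and in 3.4% of the genes tested with an entry, and in 12 of the 98 lower genes with one (12.2%) and 3 of the 118 higher genes (2.54%). The 12 were Fcgr4, Gbp2b, Ifi205, Ifi207, Ifi211, Plcd3, Prss2, Slfn8, Slfn9, Trim30a, Trim30d and Zfp982, several of which are related neighbours that share sequence. A match is a description of these letters and no sign that a factor binds.

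Outside the pancreatic, macrophage and interferon groups, the lower genes were led by Cnbd2, a cyclic nucleotide-binding protein, which had 0.631, 0.318 and 0.319 CPM in patBFMI and 6.03 and 3.7 CPM in B6N (log2 fold change -3.76, SE 0.321, adjusted p = 0.000446). BFMI was as low, at 0.359 and 0.292 CPM. Vnn1, a pantetheinase and a target of the fatty acid receptor PPARA, had 6.9, 12.6 and 9.95 CPM against 68.5 and 48.3 CPM (-2.55, SE 0.305, adjusted p = 0.00326). Fgl1, a protein that liver secretes, had 117, 111 and 73.3 CPM against 433 and 524 CPM (-1.93, SE 0.24, adjusted p = 0.00398). These groups were far apart. BFMI had 228 and 468 CPM of Fgl1, above all 3 patBFMI livers, while its Vnn1 stood at 14.5 and 22.4 CPM. Lepr, the leptin receptor, had 4.81, 3.84 and 4.86 CPM against 14.1 and 42.8 CPM (-2.11, SE 0.33, adjusted p = 0.0138), and its call held without any one library. Alas1, which sets the rate of haem synthesis, had 93.8, 119.8 and 80.6 CPM against 372 and 191 CPM (-2.11, SE 0.382, adjusted p = 0.0267). The calls of Cnbd2, Vnn1, Fgl1 and Alas1 were lost without the B6N male (adjusted p up to 0.204), and that of Alas1 also without the B6N female or patBFMI 3.

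Further lower genes had various roles. Cep85, a centrosomal protein, had 26.9, 19 and 24.7 CPM against 80.3 and 64.3 CPM (log2 fold change -1.73, SE 0.2, adjusted p = 0.00274). Ildr2, which has been linked to hepatic lipid content, had 4.36, 4.31 and 2.92 CPM against 13.6 and 27.4 CPM. Il1b, the interleukin, had 0.454, 1.1 and 0.84 CPM against 3.16 and 3.04 CPM. In all 3 the groups were apart. Acpp, an acid phosphatase, had 1.36, 2.08 and 1.63 CPM against 6.88 and 11.1 CPM, and Saa2, an acute phase protein, 3.33, 6.3 and 4.64 CPM against 15 and 9.66 CPM. Tcf24, Plcd3 and Efr3b were lower by 2.22, 2.65 and 2.03 on the log2 scale, at means below 1 CPM in patBFMI. Sort1, sortilin, which carries apolipoprotein B, had 10.5, 7 and 8.61 CPM against 24.1 and 13.4 CPM (-1.44, SE 0.206, adjusted p = 0.00857), and 2.89 and 1.79 CPM in BFMI. Vldlr, a receptor for very low density lipoprotein, had 0.828, 0.403 and 0.824 CPM against 2.13 and 7.36 CPM (-1.8, SE 0.322, adjusted p = 0.0242). All of these calls were lost without at least 1 library.

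Cholesterol synthesis genes were mostly higher. Of the 24 tested, 23 had a log2 fold change above 0 and 14 lay above both B6N livers, against 50.6% and 17.3% of all genes. By edgeR 3 were called higher, against 1.05%, and none lower. The median was 0.68 against 0.00377 over all genes. Their summed level overlapped, with 3869.5 to 5141 CPM in patBFMI against 2734 CPM in the B6N male and 3997 CPM in the female. Msmo1, a demethylating oxidase of the pathway, had 219.7, 227 and 189.6 CPM against 96.4 and 134 CPM (log2 fold change 1.05, SE 0.163, adjusted p = 0.0129). Lss, lanosterol synthase, had 84.7, 111 and 93.9 CPM against 46.8 and 71.3 CPM, and Pmvk, phosphomevalonate kinase, had 66.9, 72 and 61.9 CPM against 39.1 and 51.2 CPM. B6N was lower in each, with no overlap, and the B6N male was below the female. Fdps, farnesyl diphosphate synthase, missed the threshold (1.13, SE 0.245, adjusted p = 0.0529). At an unadjusted p below 0.05 there were 17 higher members against 8.07% of all genes. DESeq2 called 13 higher, against 439 of all 17656 genes. The median stayed above 0 under all 17 alternatives, from 0.51 to 0.76, whereas the calls of Msmo1, Lss and Pmvk were lost without the B6N male (adjusted p up to 0.29), that of Lss also without patBFMI 2, patBFMI 3 or the B6N female, and that of Pmvk without any one of the 5.

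For fatty acid synthesis edgeR called 0 of 23, and the median was 0.23. At an unadjusted p below 0.05, 7 were higher, against 8.07% of all genes, and 0 lower. DESeq2 called 5 higher, against 439 of all 17656 genes, and limma-voom 1, against 196. Above both B6N livers lay 3 and below both 2, against 17.3% and 15.2% of all genes. The summed level overlapped, with 13394 to 22653 CPM in patBFMI against 19855 CPM in the B6N male and 19719.5 CPM in the female. Acly, which supplies acetyl-CoA, had 449.6, 922 and 750.5 CPM against 381 and 617 CPM (log2 fold change 0.92, SE 0.314, adjusted p = 0.213), so that patBFMI 1 fell between the B6N livers. In a list of 24 genes of triglyceride assembly and lipid droplets, which does not hold Gpat3, edgeR called none. Gpat3 itself was called higher, as given above. At an unadjusted p below 0.05, 3 of the 24 were higher and 7 lower, against 8.07% and 6% of all genes. DESeq2 called 2 in each direction and limma-voom none. Of 24 PPAR receptors and targets 3 were called lower, against 0.821% of all genes, and none higher, with a median of -0.23. Besides Vnn1 these were Fgf21, a fasting hormone of liver, with 1.78, 2.82 and 2.72 CPM against 8.92 in the B6N male and 2.28 CPM in the female (-1.73, SE 0.307, adjusted p = 0.0239), and Pparg, with 2.21, 2.14 and 1.78 CPM against 6.27 and 3.6 CPM (-1.64, SE 0.299, adjusted p = 0.027). The B6N female lay within the patBFMI range for Fgf21, and without the B6N male or patBFMI 3 neither Fgf21 nor Pparg was called. Abcd2, a carrier of very long-chain acyl-CoA into peroxisomes, was the only call of 38 genes of peroxisomal and omega oxidation, with 12.8, 10.7 and 13 CPM against 30.5 and 95.2 CPM (-1.26, SE 0.152, adjusted p = 0.00334), a call lost without the B6N male (adjusted p = 0.145). Cyp4a14, an omega-hydroxylase, stood at 89.1, 124 and 62.1 CPM against 260 and 533 CPM but did not pass (adjusted p = 0.0583).

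Amino acid breakdown and urea cycle genes mostly had fold changes above 0: this held for 32 of 33, against 50.6% of all genes, and 13 lay above both B6N livers, against 17.3%. Their median was 0.38, while their summed level overlapped, with 25968 to 27449 CPM in patBFMI and 20425 CPM in the B6N male and 26054 CPM in the female. Agxt, which clears glyoxylate in peroxisomes, was the one call, with 322, 375 and 385 CPM against 201 and 253 CPM (log2 fold change 0.97, SE 0.165, adjusted p = 0.0203). It was lost without patBFMI 3 or without the B6N male (adjusted p up to 0.0814). Gpt, alanine aminotransferase, had 178, 204 and 195 CPM against 130 and 151 CPM (0.61, SE 0.139, adjusted p = 0.0618), and 19 members were higher at an unadjusted p below 0.05, against 8.07% of all genes. The median stayed above 0 under all 17 alternatives, from 0.2 to 0.47.

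Bile acid and drug enzymes gave scattered calls, to be read beside 1.05% of all genes called higher and 0.821% lower. Cyp8b1, which makes cholic acid, had 467, 358 and 340.3 CPM against 201 and 152 CPM (log2 fold change 0.98, SE 0.198, adjusted p = 0.0411), the one call of 24 genes of bile acid synthesis and transport, and it was lost without any one of the 5 libraries. Of 38 drug-metabolising cytochromes and their receptors Cyp2c39 and Cyp1a2 were higher and Cyp2d40 lower. Cyp1a2, which is found around the central vein, had 346, 359.6 and 379 CPM against 185 and 234 CPM (0.89, SE 0.162, adjusted p = 0.0268). Of 48 conjugating and flavin enzymes 3 were higher and none lower. Gstm6, a glutathione transferase, had 78.5, 129 and 118 CPM against 48.5 and 47.5 CPM. Gstt3, with 22.8, 25.2 and 24.6 CPM against 11.6 in the B6N male and 41 CPM in the female, was called higher in the fit with a sex term, while its fitted difference was -0.12 without that term. Among 30 acute phase proteins, Serpina3c, Serpina3m and Lbp, which binds endotoxin, were higher, Saa2 and Orm2 were lower, and the median was -0.24. Lbp had 116, 120 and 119 CPM against 59.7 and 71.3 CPM (0.92, SE 0.13, adjusted p = 0.00805), and 233 and 236 CPM in BFMI. Calls of Cyp1a2, Cyp2d40, Gstm6, Gstt3, Lbp, Orm2 and Saa2 were lost without the B6N male. Those of Cyp1a2, Cyp2d40, Gstm6, Orm2 and Saa2 were also lost without patBFMI 3. When single libraries were left out, the Gstm6 call held only without patBFMI 1, and the Orm2 call was lost without any one of the 5.

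Cell cycle genes, of which liver at rest makes little, were low throughout, with a summed level of 44.6 to 57.7 CPM in patBFMI against 74.7 CPM in the B6N male and 124 CPM in the female. Of the 30 tested, 27 had a log2 fold change below 0 and 22 lay below both B6N livers, against 49.4% and 15.2% of all genes. The median was -1.03, and Ccnb2 and Cenpf were called, against 0.821% of all genes called lower. Ccnb2, cyclin B2, had 0.256, 0.276 and 0.252 CPM against 0.925 and 0.555 CPM (log2 fold change -1.89, SE 0.344, adjusted p = 0.027). Its call was lost without the B6N male, the B6N female or patBFMI 3, and that of Cenpf without any one of the 5 libraries. Without the B6N female the median of the list was -0.54. Ccnd1, cyclin D1, had 5.52, 8.1 and 6.56 CPM against 13.5 and 54.3 CPM and did not pass (adjusted p = 0.0735). Tk1, thymidine kinase 1, chosen after its values were seen, went the other way, with 27.3, 16.3 and 22.7 CPM against 7.38 and 12.6 CPM. It was called higher (1.61, SE 0.215, adjusted p = 0.00615, edgeR), a call lost without the B6N male.

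**Figure D5:**
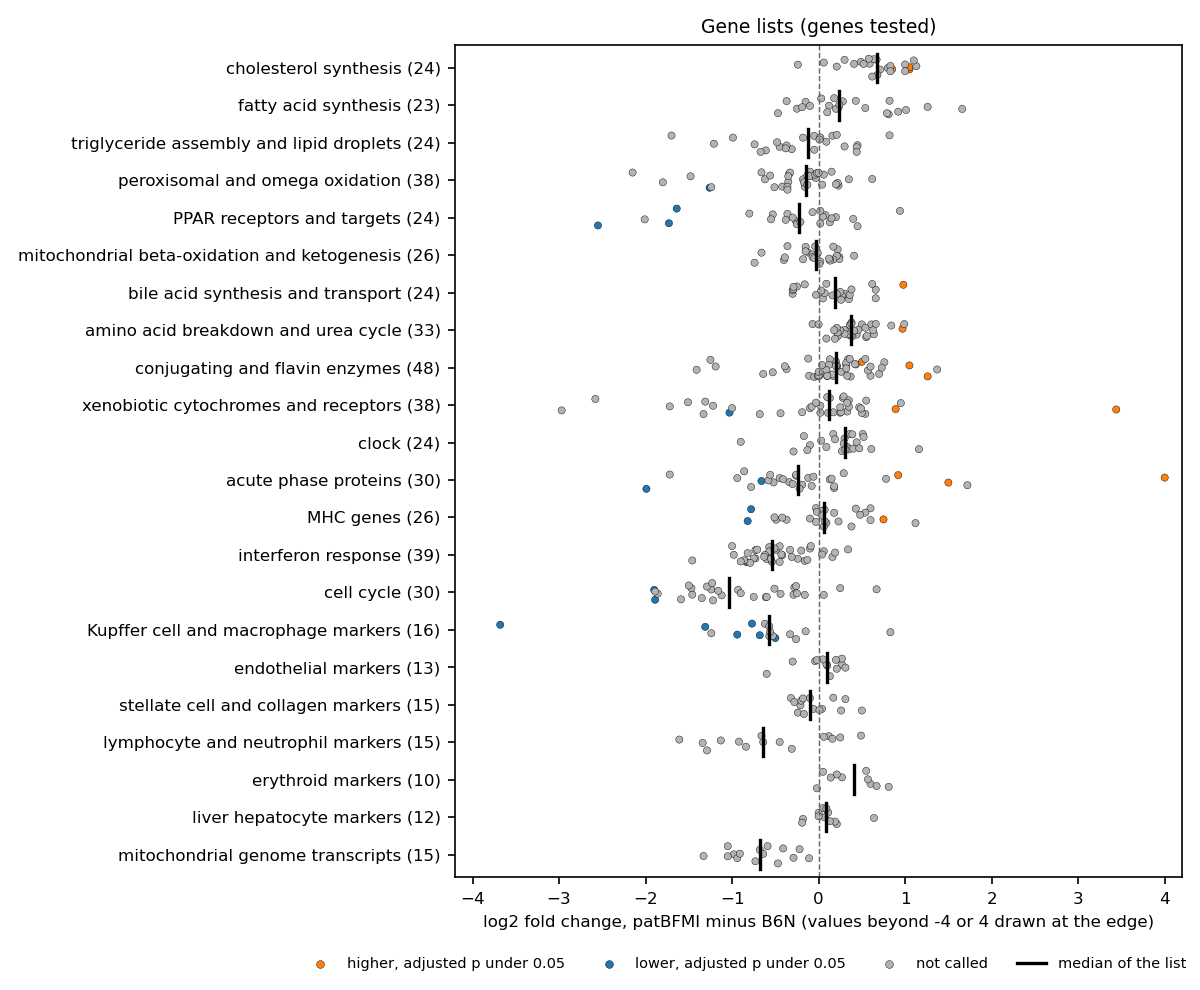
Log2 fold changes of patBFMI against B6N (horizontal axis) for the genes tested of 22 lists, 1 list a row with its number of genes in brackets; orange and blue points are genes called higher and lower, grey points were not called, and the black bar is the median of the list. The bar lies at 0.68 for cholesterol synthesis and at -0.57 for macrophage markers, against 0.00377 over all autosomal genes.

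In 19 of the 36 lists no member was called by edgeR. These held 403 genes, of which 43 were higher and 35 lower at an unadjusted p below 0.05, against 8.07% and 6% of all genes. DESeq2 called 20 of the 403 higher and 8 lower, against 439 and 244 of all 17656 genes. By limma-voom 4 were higher, against 196 of all genes. Markers of hepatocytes (median 0.08), endothelial cells (0.1) and stellate cells (-0.1) were among these lists. So were those of cholangiocytes (-0.45) and of lymphocytes and neutrophils (-0.64, with 10 of 15 below 0). The median of the lymphocyte and neutrophil markers kept its sign under 16 of 17 alternatives. It was 0.33 when genes needed at least 50 counts in 2 libraries. The sum of these markers was 14.2 to 15.6 CPM in patBFMI and 15.5 and 17.5 CPM in B6N. Erythroid markers, which follow the blood left in the organ, had 9 of 10 members above 0 and 6 above both B6N livers, against 50.6% and 17.3% of all genes, and their summed level was 581 to 708 CPM against 450 and 305 CPM. The clock genes had a median of 0.3, which was below 0 on the deposited RPKM scale. Genes biased towards females in mouse liver had a median of -0.88 in spite of the sex term and 0.08 when males alone were compared. In the list of 34 ribosomal protein genes 1 was called lower, Rps18 (25.5, 28.6 and 26 CPM against 45.8 and 44.5 CPM). As Rps18 has processed copies in the genome, its count is uncertain. That call was lost without the B6N male, patBFMI 1 or patBFMI 3 (adjusted p up to 0.502).

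Transcripts of the mitochondrial genome, which is B6N on both sides, lay lower without a call. All 15 had a log2 fold change below 0, 14 lay below both B6N livers and 8 were lower at an unadjusted p below 0.05, against 49.4%, 15.2% and 6% of all autosomal genes. Their median was -0.68, edgeR and limma-voom called none, and DESeq2 called 2. Their sum was 47248, 54692 and 48882 CPM against 58058 and 60823 CPM. Leaving out the B6N male moved the median to -1.55, and males alone gave -0.36. Of 718 X-linked genes tested, where both sides carry the B6N chromosome, 4 (0.557%) were called: the processed pseudogenes Gm4987 and Gm8163 were higher, and Serpina7, thyroxine-binding globulin, and Cfp, properdin, lower. Serpina7 had 8.9, 21 and 19.5 CPM against 79.4 in the B6N male and 21 CPM in the female. For the 13 Y-linked genes tested the B6N side is 1 male, since the female has no Y chromosome, so no result is given for them.

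Called genes lay close to one another on the chromosomes. Of the 330, 134 (40.6%) had another called gene starting within 500 kb, against 20.5% of genes not called, and without the pancreatic genes the shares were 39.7% and 19.6%. By chromosome, the share called ran from 0.884% on chromosome 15 to 3.18% on chromosome 3, where the 6 pancreatic amylase genes lie, and was 2.76% on chromosome 12 and 2.71% on chromosome 17. No test was run on these shares.

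Between the reciprocal F1 groups, in the same fit, 9 of the 17656 autosomal genes (0.051%) were called between matBFMI and patBFMI, and 2 of the 330, Coq10b and Abcd2, were among them. Coq10b, a coenzyme Q-binding protein of mitochondria, had 16.6, 16.3 and 13.9 CPM in patBFMI, 28.5 and 28.4 CPM in B6N (log2 fold change -0.85, SE 0.12, adjusted p = 0.00787, and 0.172 without the B6N male), 29.6 to 32.8 CPM in matBFMI and 10.5 and 11 CPM in BFMI. The patBFMI livers overlapped neither B6N nor matBFMI. Most called genes did not pass this test, which does not show that they were alike. For Serpina3c the difference of matBFMI minus patBFMI was 0.03 (SE 0.129, adjusted p = 0.969), for Ctse the adjusted p was 0.218 and for Cyp46a1 0.274, with 22.5, 23.5 and 42 CPM of Cyp46a1 in matBFMI.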

How the data were processed

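Liver RNA of 10 libraries was sequenced. Per the labels and the submitters' processing notes, reads were trimmed with Trimmomatic 0.32, aligned to mm10 with TopHat2 2.10 and Bowtie2 2.2.6 and handled with Picard 1.99, while the article names BWA as the aligner. Labels and methods also differ on poly(A) selection or ribosomal depletion. The authors deposited raw counts of reads per gene and, separately, RPKM values. Reads were aligned to the B6 reference, and an effect on reads of BFMI alleles was not tested. A total of 3 columns that match no sample were not used.

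Counts of all 10 libraries were fitted with edgeR 4.0.16 in R 4.3.3 (TMM scaling, quasi-likelihood test, terms for group and sex, 5 residual degrees of freedom), with genes kept at 10 counts in 2 of the 5 libraries and Benjamini-Hochberg adjustment over genes of all chromosomes (threshold 0.05). Labels name separate animals as replicates, 3 against 2. Fold changes are patBFMI minus B6N on the log2 scale, adjusted for sex. DESeq2 1.42.0 and limma 3.58.1 served for alternatives, with RPKM tested as log2(value + 1) or log2(value + 0.1). Scripts were tested on simulated data. Gene positions came from GENCODE M21 (GRCm38), matched for 40254 of 41388 genes. Promoters came from RefSeq with chromosome 18 left out, where 216 of the 330 called genes had an entry.

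Named genes were protein-coding autosomal genes that were called, did not overlap between groups and reached 1 CPM, namely the 12 largest changes and the 6 smallest p per direction, plus the 4 smallest p of each of 36 gene lists. List markers that did not pass could be named too. The members, lists and the pancreatic gene set were chosen with earlier results of these data known, so no list is independent evidence of its direction. Genes just inside the count filter were few: 372 had exactly 10 counts in their second-highest library, and 453 just outside had 9.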

Additional observations from a re-analysis of the deposited data

Results flagged for a closer look

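In 2 genes called between patBFMI and B6N, the patBFMI level also differed from that of the reciprocal F1 by the test of that difference. Coq10b was higher in matBFMI than in patBFMI by 0.99 on the log2 scale (SE 0.0971, adjusted p = 0.00446, edgeR), with 32.8, 30.7 and 29.6 CPM in matBFMI against 16.6, 16.3 and 13.9 CPM in patBFMI, while B6N had 28.5 and 28.4 CPM. Its call against B6N was lost without the B6N male (adjusted p = 0.172). Abcd2 was higher in matBFMI by 1.13 (SE 0.126, adjusted p = 0.0107), with 30.2, 22.8 and 26.9 CPM against 12.8, 10.7 and 13 CPM, while B6N had 30.5 CPM in the male and 95.2 CPM in the female. In both genes the 3 matBFMI livers lay above the 3 patBFMI livers.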

How the results depend on the processing

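The count of calls depended on the fit more than the sign did. Against 185 higher and 145 lower genes, scaling by library size alone gave 113 and 133, DESeq2 439 and 244, and no filter beyond 1 count 511 and 405. The 5 libraries with a group term alone gave 61 and 69, the 5 libraries with group and sex terms 33 and 35, and the 8 male libraries 122 and 98. RPKM gave 29 and 59 with a pseudocount of 1, and 28 and 40 with a pseudocount of 0.1. Leaving out each library gave 51 to 156 higher and 36 to 139 lower genes, with the lowest counts without the B6N male, 80 and 57 without patBFMI 3, and 118 and 86 without the B6N female. Where B6N is left with 1 library, it is assumed to vary like the other groups. Without the B6N male that library is a female, and the sex term rests on the BFMI pair alone. Calls of 11 of the 330 genes held under all 17 alternatives: Ctse, Cyp46a1, Asic5, H2-Ea-ps, Ceacam2, Serpina3c, H2-K2, Ces1b, Rprl3 and Vmn2r20 were higher and Lyz2 lower. All 330 kept their sign with DESeq2 and limma-voom, and 318 and 317 did on the RPKM scales, where Serpina3i was among those that did not. Gstt3 turned to -0.1 in the 5 libraries and to -0.12 in the 10 libraries without a sex term, and Papss2, called higher by 0.68, to -0.13 and -0.15. The cause was not tested. Without the pancreatic genes, an alternative chosen after seeing the data, 185 higher and 125 lower genes remained. No paired analysis was possible because the B6N animals carry no offspring number that the patBFMI animals share. Sex, lane and possibly diet differ between the groups, and 2 B6N animals limit how well their spread is known. Genes with few counts are limited by depth.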

Other observations

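The following genes belong to no list described above and were chosen after their values were seen. They include 3 enzymes of one-carbon metabolism, which say nothing of the pathway as a whole. Aldh1l1, which oxidises formyl-tetrahydrofolate, had 1196, 1414 and 1247 CPM against 763 and 860.5 CPM (log2 fold change 0.82, SE 0.15, adjusted p = 0.0271, edgeR). Shmt2, the mitochondrial serine hydroxymethyltransferase, had 112, 129 and 117 CPM against 71.8 and 72.6 CPM (0.7, SE 0.139, adjusted p = 0.039), and its cytosolic relative Shmt1 was higher by 0.71 (adjusted p = 0.0367). The groups did not overlap in any of these. The call of Shmt1 was lost without any one of the 5 libraries, and those of Shmt2 and Aldh1l1 held only without patBFMI 1 (adjusted p up to 0.333). In haem synthesis Alad, the enzyme after Alas1, was higher, with 105, 121 and 105 CPM against 61.3 and 54.5 CPM (0.82, SE 0.134, adjusted p = 0.0161), the opposite direction to Alas1, and its call was lost without the B6N male or patBFMI 3 (adjusted p up to 0.222).

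A further 3 genes known from leukocytes were called lower, while none of the 15 lymphocyte and neutrophil markers was called by edgeR or DESeq2 or had an unadjusted p below 0.05. Itgb2, the beta chain of leukocyte integrins, had 4.36, 4.09 and 4.19 CPM against 7.31 and 7.52 CPM (-0.93, SE 0.153, adjusted p = 0.0176). Cd52, a surface antigen of leukocytes, was lower by 1.56 on the log2 scale (adjusted p = 0.0176) and Fcgr4, an antibody receptor, by 0.99 (adjusted p = 0.023). All 3 calls were lost without patBFMI 3, those of Cd52 and Fcgr4 also without the B6N male, and that of Fcgr4 without the B6N female (adjusted p up to 0.0843).

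Among ribosomal protein genes, Rpl21 had 15.5, 15.5 and 15.4 CPM against 28.2 and 28.3 CPM in B6N and 2.92 and 3.71 CPM in BFMI (-0.79, SE 0.115, adjusted p = 0.0093), and Rpl34 had 11.3, 11.1 and 10.7 CPM against 21.9 and 18.5 CPM, with 1.98 and 2.24 CPM in BFMI. Both have processed copies in the genome, so how reads were assigned to them is uncertain. Both calls were lost without the B6N male. Rps15a was also called lower, by 0.63 on the log2 scale, a call lost without patBFMI 3 or without the B6N male. Rpl21, Rpl34 and Rps15a are not in the list of 34 ribosomal protein genes, which had a median of 0.05 with 24 members above 0.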
